A study of Bos taurus with 71 samples.

Results

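The rumen and the mid-jejunum of Holstein bull calves were compared at 42 days after birth (D42). The comparison holds the 5 samples labelled rumen and the 5 labelled mid-jejunum of that age, 10 of the 71 samples of the series, and a shared animal number was read as a shared calf. According to the study's methods, D42 calves had been fed colostrum and then milk, with free access to calf starter. Intestinal tissue of D42 was rinsed, frozen and ground whole, so each library holds RNA of all cell types of the piece taken. The methods describe the sampling of the jejunum and not that of the rumen. The other ages used beside D42 are D0 (3 samples of each tissue, taken at birth before colostrum) and D7 and D21 (5 of each), all from other calves. According to the methods, D0 tissue was not rinsed, and D7 calves had milk without starter, unlike those of D21 and D42. Rinsing and diet thus differed with age and cannot be told apart from it.

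The forestomach and the small intestine meet the diet with different linings. The rumen is covered by a stratified squamous epithelium held together by desmosomes and anchored by hemidesmosomes, without glands, and is known for absorbing the short-chain fatty acids made by its microbes. The jejunum is lined by a single layer of columnar enterocytes that absorb nutrients and export fat as lipoproteins, with secretory cells between them and B cells, plasma cells, T cells and macrophages in the layer below.

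Values are CPM, the reads of a gene per 1000000 mapped reads of its library, which the authors deposited as whole numbers. Log2(CPM + 1) was tested with limma for each gene, and FDR denotes limma's Benjamini-Hochberg adjusted p-value over all 14174 genes tested. A gene was called when FDR was under 0.05 and the difference exceeded 1 on the log2(CPM + 1) scale, written below as log2FC with its standard error (SE) and always as rumen minus mid-jejunum. Fold differences in the text compare the mean CPM of the 5 libraries of each tissue. A gene at 0 CPM in all 5 libraries of a tissue is described as listed at 0, with no fold or log2FC. The labels do not say that samples of a group are more than separate samples, so p-values measure the spread between these samples.

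The 10 libraries fell with their labels. Principal component 1 of the 10 samples held 84.8% of the variance and placed the rumen libraries between 101.1 and 108.2 and the mid-jejunum libraries between -112.9 and -94.3. Between 12186 and 12694 genes reached 2 CPM in a rumen library, against 13306 to 13849 in a mid-jejunum library, a difference of means of -1044 genes (p = 0.00794 by an exact two-sided permutation test, which 5 against 5 libraries cannot go below). The 100 highest genes of a library took 37.4% ± 2.72 of its summed CPM in the rumen and 25.9% ± 2.99 in the mid-jejunum (SD, n = 5 each, two-sided exact permutation test, p = 0.00794). The identifier ENSBTAG00000043561 was the highest gene in all 10 libraries, with a mean of 9.4% of the summed CPM in the rumen and 3.3% in the mid-jejunum. It alone gave 6.1 of the 11.6 percentage points between the tissues. Mid-jejunum library 3 stood apart from its group, with a correlation of 0.937 to 0.955 with the other mid-jejunum libraries of D42 across genes and 0.978 with mid-jejunum library 3 of D21. A correlation of that size with a library of another age was not particular to it. Mid-jejunum libraries 2, 4 and 5 of D42 reached 0.977, 0.98 and 0.984. The summed CPM of 2 smooth muscle markers (DES and TPM1) was 3349 in that library against 1099 to 2704 in the other mid-jejunum libraries, and 12204 in rumen library 5 against 3117 to 6288 in the other rumen libraries.

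Summed markers were checked against the labels. The summed CPM of 8 markers of stratified epithelium, with ITGB4, ITGA6, COL7A1, CDH3, LAMB3 and DSP among them, lay between 6116 and 8004 in the rumen and between 641 and 936 in the mid-jejunum. DSP alone gave 5238 to 7091 CPM of the rumen sums, and LAMB3 had lower values in the rumen (26 to 50 CPM) than in the mid-jejunum (48 to 99 CPM), without a call. The 8 enterocyte markers summed to 70 to 188 CPM in the rumen, where LGALS4 alone made up 64 to 185, and to 5026 to 15672 CPM in the mid-jejunum. All 5 markers in the intestinal secretory cell set (AGR2, FCGBP, SPDEF, REG3G and the crypt gene OLFM4) were listed at 0 in every rumen library, and they summed to between 5528 and 8645 CPM in the mid-jejunum, where OLFM4 made up 5069 CPM of the sum in library 3. In bulk tissue, fewer cells of a type and less RNA per cell cannot be told apart.

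At D42, 1419 genes were called higher in the rumen and 3333 higher in the mid-jejunum, 33.5% of the genes tested (10% and 23.5%). The median log2FC of all genes tested was -0.31, and it was -0.05 when libraries were scaled by median ratios, with 1831 genes then called higher and 2679 lower. List medians below stand beside -0.31, the median of all genes tested. Of the genes tested, 43.8% had CPM values that did not overlap between the tissues. The files pair no identifier with a symbol, and the symbols used here come from the study's tables of genes detected in the small intestine. The full list of immune-related genes gave 1280 pairs. The lists of immune-related genes that changed with age in jejunum or ileum gave 497 more. Together they cover 11.2% of the genes called higher in the rumen and 19.9% of those called lower. Genes found in the rumen and absent from the intestine therefore go without a symbol. Of the 1720 genes with a symbol of their own, 9.01% were called higher in the rumen and 37.2% lower, and of the 1241 from the study's full list of immune-related genes 8.30% and 33.4%. Every gene list was drawn from these 1720 genes, so the counts of members called are to be read against these shares as well. A median log2FC of the 1720 genes is not given.

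Some genes were listed at 0 in 1 tissue and abundant in the other. Of the genes tested, 3.83% were listed at 0 in every rumen library and 1.57% in every mid-jejunum library. Among them, 26 were listed at 0 in all mid-jejunum libraries with at least 100 CPM in every rumen library, and 52 were the reverse. The 2 identifiers without a symbol with the largest positive log2FC were ENSBTAG00000006806, at 8525 to 10443 CPM in the rumen, and ENSBTAG00000004097, at 5241 to 8211 CPM, both listed at 0 throughout the mid-jejunum. In the other direction, ENSBTAG00000018054 was at 2312 to 7391 CPM and ENSBTAG00000012884 at 824 to 3143 CPM in the mid-jejunum, and both were listed at 0 throughout the rumen.

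**Figure D1:**
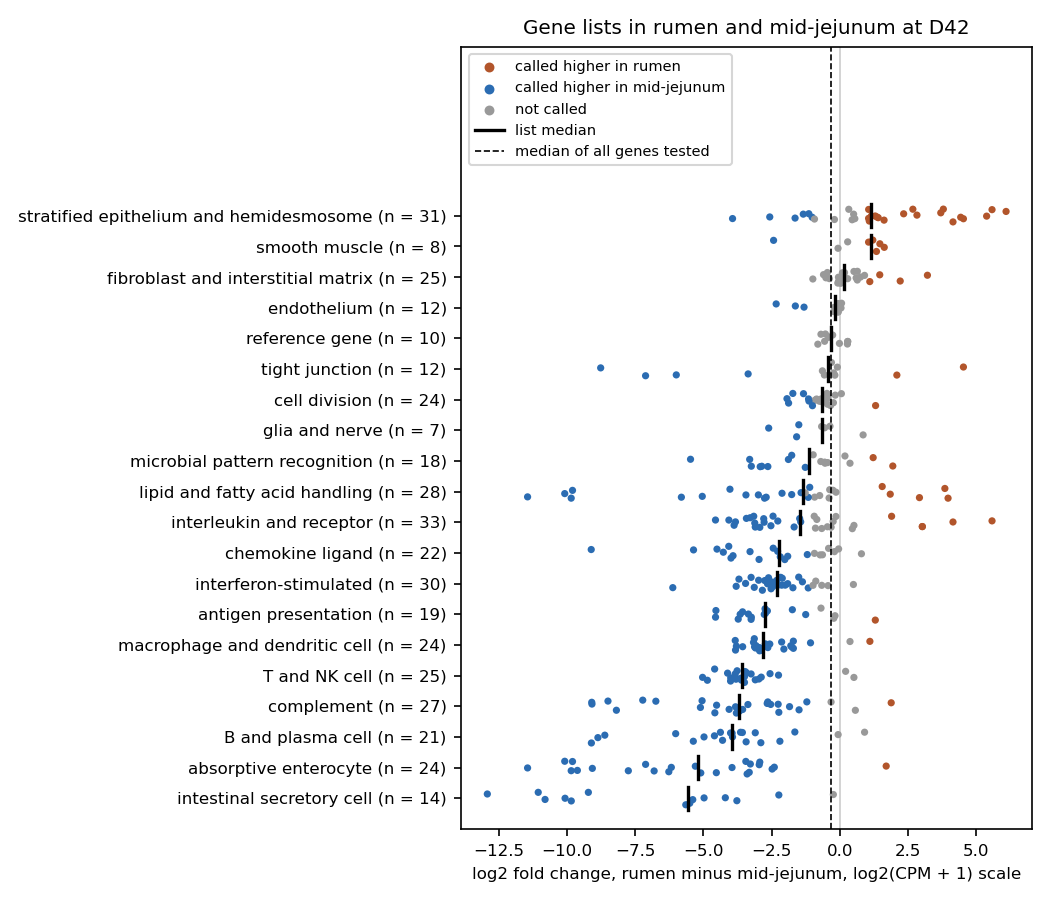
The log2 fold change of each member of 20 gene lists, rumen minus mid-jejunum at D42, on the log2(CPM + 1) scale, 1 point per gene, coloured by its call, with the list median as a bar and the median of all genes tested (-0.31) as a dashed line. The stratified epithelium list (median 1.16) and the smooth muscle list (1.14) lie to the right, and the enterocyte (-5.20) and secretory cell (-5.58) lists lie farthest to the left.

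Genes of the stratified epithelium were mostly higher in the rumen. Of 31 list members tested, 19 were called higher and 6 lower, with a median log2FC of 1.16. DSP (desmoplakin), which ties desmosomes to keratin filaments, was at 5238, 7091, 5320, 6844 and 6142 CPM in rumen libraries 1 to 5 and at 216, 261, 397, 257 and 294 CPM in mid-jejunum libraries 1 to 5. The lowest rumen value was far above the highest mid-jejunum value, and the mean was 21.5-fold higher in the rumen (log2FC 4.44, SE 0.17, limma FDR = 3.9e-10). GJA1, a connexin of gap junctions, was at 2488, 3285, 2717, 3009 and 2399 CPM in the rumen against 58, 53, 83, 61 and 73 CPM in the mid-jejunum. No value overlapped, and the means differed 42.4-fold (log2FC 5.39, SE 0.14, limma FDR = 1e-11). AQP3, a channel for water and glycerol, had the largest positive log2FC of the genes with a symbol. It was at 779, 652, 644, 964 and 892 CPM in the rumen and at 15, 11, 6, 16 and 7 CPM in the mid-jejunum, 71.5-fold apart without overlap (log2FC 6.11, SE 0.24, limma FDR = 5.8e-10).

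Members tied to the basement membrane differed in both size and direction. COL7A1, the collagen of anchoring fibrils, had a log2FC of 2.69 (SE 0.27, limma FDR = 3.1e-06), and ITGB4, the hemidesmosomal integrin beta subunit, one of 1.16 (SE 0.15, limma FDR = 3.6e-05), both without overlap of the tissues. CDH3 (P-cadherin) was at 41 to 43 CPM in the rumen and at 4, 6, 27, 5 and 6 CPM in the mid-jejunum, where library 3 alone was above 6 (log2FC 2.35, SE 0.38). ITGA6, the partner of ITGB4, was not called (log2FC 0.46, SE 0.12, limma FDR = 0.0049). LAMB3 was at 26 to 50 CPM in the rumen and 48 to 99 CPM in the mid-jejunum and was not called (log2FC -0.93, SE 0.22), although it was called lower without rumen library 4 (-1.03), mid-jejunum library 1 (-1.01) or mid-jejunum library 2 (-1.06). The members called lower with the largest change were CARD14 (-3.93), DSG2 (-2.57), a desmosomal cadherin also found in simple epithelia, and ALOX12 (-1.64).

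Other genes among the 10 with the largest positive log2FC were ALPL (5.22), the tissue-nonspecific alkaline phosphatase, DUOX2 (4.62), which makes hydrogen peroxide at epithelial surfaces, CD109 (4.11) and ECM1 (4.07). DUOX2 was at 226, 397, 405, 429 and 390 CPM in the rumen and at 22, 5, 31, 30 and 4 CPM in the mid-jejunum.

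Tight junction genes differed in opposite directions. Claudins form the paracellular seal or pores, and the members present differ between tight and leaky epithelia. Of 12 members, 2 were called higher in the rumen and 4 lower, with a median log2FC of -0.43. The share called is near the 46.2% of genes with a symbol, and the median is near the -0.31 of all genes tested. CLDN1, a sealing claudin of stratified epithelia, was at 94, 119, 117, 128 and 84 CPM in the rumen and at 5, 5, 2, 3 and 4 CPM in the mid-jejunum. The tissues did not overlap (28.5-fold, log2FC 4.54, SE 0.21, limma FDR = 2.1e-09). CLDN4 was at 332, 279, 283, 347 and 241 CPM against 95, 71, 26, 145 and 56 CPM, also without overlap (log2FC 2.10, SE 0.35, limma FDR = 0.00022).

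The pore-forming claudins CLDN2 and CLDN15 stood on the other side, and so did CLDN3 and CLDN7. CLDN2, a channel for cations and water, was listed at 0 in all rumen libraries and was at 437, 491, 269, 508 and 540 CPM in the mid-jejunum. CLDN15, a sodium channel of the intestine, was at 0 or 1 CPM in the rumen and at 195, 227, 81, 245 and 234 CPM in the mid-jejunum, where library 3 was lowest for both genes. CLDN3 was at 0 to 4 CPM against 123 to 204 CPM, and CLDN7 at 24 to 53 CPM against 383 to 517 CPM (10.2-fold lower in the rumen, log2FC -3.36, SE 0.18, limma FDR = 1.2e-08). The remaining 6 members were not called. CGN (log2FC -0.64) and F11R (-0.56) had values that did not overlap, with lower values in the rumen, whereas CLDN12 (-0.30), CLDN5 (-0.22), ESAM (-0.18) and CXADR (-0.09) overlapped, and the last 3 changed sign under median-ratio scaling (0.04, 0.09 and 0.19).

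**Figure D2:**
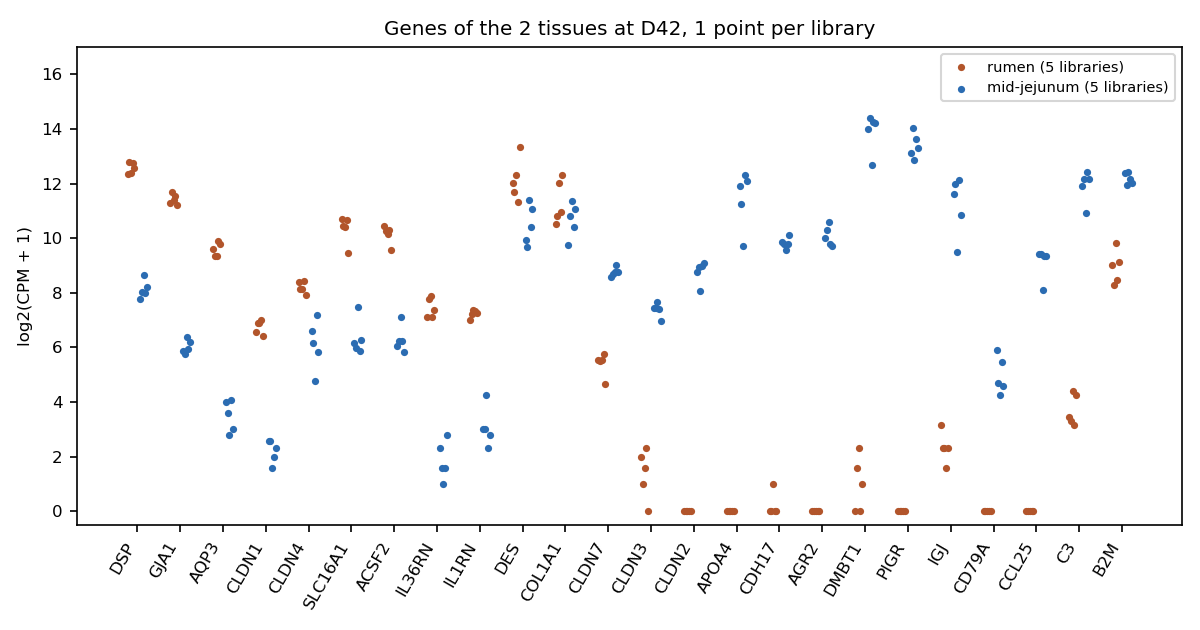
CPM of 24 genes in each of the 10 libraries of D42, as log2(CPM + 1), with rumen and mid-jejunum points side by side. The rumen libraries lie above the mid-jejunum libraries for DSP, GJA1, AQP3, CLDN1, CLDN4, SLC16A1, ACSF2, IL36RN and IL1RN, the tissues overlap for DES and COL1A1, and CLDN2, APOA4, AGR2, PIGR, CD79A and CCL25 are at 0 in all 5 rumen libraries.

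Enterocyte genes were lower in the rumen with 1 exception. Of 24 members tested, 23 were called lower and 1 higher (median log2FC -5.20), and 8 were listed at 0 in every rumen library. APOA4, an apolipoprotein of chylomicrons, was listed at 0 in the rumen and was at 3842, 2427, 849, 5071 and 4349 CPM in the mid-jejunum. CDH17, a cadherin of the intestinal epithelium, was at 0 or 1 CPM in the rumen and at 762 to 1119 CPM in the mid-jejunum. APOB, the structural protein of chylomicrons, and APOA1 were at 0 to 4 and 1 to 5 CPM in the rumen and at 811 to 2255 and 1098 to 5822 CPM in the mid-jejunum. The markers CDHR2 (listed at 0 in the rumen), MME (log2FC -4.53), LGALS4 (-2.95) and VNN1 (-2.40) were called lower as well. The member called higher was UGT1A1, at 1074, 1106, 1068, 1171 and 555 CPM in the rumen and 298, 295, 311, 306 and 264 CPM in the mid-jejunum (3.37-fold, log2FC 1.71, SE 0.18, limma FDR = 5.8e-06). UGT1A1 conjugates bilirubin and belongs to a locus whose transcripts share exons, so reads of its relatives may be counted with it.

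Secretory cell genes were nearly absent from the rumen. Of 14 members, 13 were called lower (median log2FC -5.58), and the list summed to 8 to 20 CPM in the rumen and to 17682 to 30494 CPM in the mid-jejunum. DMBT1, a mucosal scavenger protein, was at 0, 2, 4, 0 and 1 CPM in the rumen and at 16222, 21753, 6573, 19768 and 19131 CPM in the mid-jejunum. It made up most of the list's sum in every mid-jejunum library except library 3. AGR2 and FCGBP, which mark goblet cells, and REG3G, an antimicrobial lectin, were at 837 to 1547, 1329 to 2678 and 636 to 2853 CPM in the mid-jejunum. OLFM4, a gene of crypt base cells, was at 322, 741, 5069, 704 and 785 CPM there, with library 3 far above the rest. FAM3D, named after its values were seen, was the member not called, at 8 to 16 CPM in the rumen and at 7, 8, 124, 10 and 9 CPM in the mid-jejunum (log2FC -0.23, SE 0.64).

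Genes of lipid and fatty acid handling were called in both directions. Of 28 members, 5 were called higher in the rumen and 16 lower, with a median log2FC of -1.34. SLC16A1 (monocarboxylate transporter 1), which carries lactate and short-chain fatty acids with protons, was at 1647, 1405, 1343, 1619 and 699 CPM in the rumen and at 70, 62, 176, 58 and 77 CPM in the mid-jejunum. Rumen library 5 was lowest and mid-jejunum library 3 highest of their groups, and the tissues did not overlap (15.2-fold, log2FC 3.98, SE 0.31, limma FDR = 2.8e-07). ACSF2, an acyl-CoA synthetase of mitochondria, was at 1390, 1227, 1141, 1275 and 760 CPM against 65, 74, 136, 75 and 56 CPM (14.3-fold, log2FC 3.86, SE 0.23). AGPAT2, an enzyme of glycerolipid synthesis, was called higher (log2FC 2.93, SE 0.50), whereas AGPAT1, an enzyme of the same step, was called lower (-1.10, limma FDR = 5.8e-05). Called higher as well were the nuclear receptors PPARG (1.86) and PPARD (1.56), which like AGPAT1 were named after their values were seen. The largest negative changes were those of the apolipoproteins, with APOC3 listed at 0 in the rumen and at 288 to 1452 CPM in the mid-jejunum.

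Genes of the secretory antibody system were among those with the largest differences. PIGR, the receptor that carries polymeric IgA across the epithelium, had the largest negative log2FC of the genes with a symbol. It was listed at 0 in every rumen library and was at 8963, 16804, 7484, 12754 and 9994 CPM in the mid-jejunum. IGJ, the joining chain of polymeric immunoglobulins, was at 8, 4, 4, 2 and 4 CPM in the rumen and at 3144, 4035, 726, 4503 and 1853 CPM in the mid-jejunum (log2FC -8.88, SE 0.45, limma FDR = 5.9e-09). IGHM, the heavy chain of IgM, was at 2 to 5 CPM against 904 to 3942 CPM, and the identifier labelled IGLL1 at 6 to 20 CPM against 1337 to 9667 CPM. Mid-jejunum library 3 was lowest for IGJ, IGHM and IGLL1, and all 3 remained without overlap.

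B cell genes followed the same direction. Of 21 members of the B and plasma cell list, 0 were called higher and 19 lower (median log2FC -3.95), and the list summed to 125 to 160 CPM in the rumen and 3307 to 18630 CPM in the mid-jejunum. Antibody genes such as IGJ, IGHM and IGLL1 made up most of the mid-jejunum sum, and B cell markers little of it. CD79A, CD79B and MS4A1, which mark B cells, were listed at 0 throughout the rumen and were at 18 to 59, 8 to 37 and 4 to 46 CPM in the mid-jejunum, highest in library 1 for all 3. The 2 members not called, named after their values were seen, were PRDM1 (log2FC 0.91, SE 0.16), whose values were higher in the rumen without overlap, and BLNK (-0.06, SE 0.26). PRDM1 is a transcriptional repressor that drives plasma cell differentiation and that other cell types, epithelial cells among them, also use.

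T cell genes were lower in the rumen apart from 2 members that did not pass the test. Of 25 members of the T and NK cell list, 23 were called lower and 0 higher (median log2FC -3.58). CD3E was at 1, 1, 2, 2 and 1 CPM in the rumen and at 97, 60, 76, 67 and 46 CPM in the mid-jejunum. CD247 (the zeta chain), the receptor chain TRAC and the kinase ZAP70 were at 2 to 5, 1 and 1 to 2 CPM in the rumen and at 36 to 63, 31 to 79 and 53 to 89 CPM in the mid-jejunum, without overlap. All of these encode parts of the T cell receptor complex or its signalling.

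The other 2 chains of the same complex had values of similar height in both tissues. CD3D was at 34, 64, 42, 42 and 24 CPM in the rumen and at 48, 30, 39, 33 and 23 CPM in the mid-jejunum (log2FC 0.22, SE 0.25, limma interval -0.32 to 0.75, limma FDR = 0.47). CD3G was at 28, 52, 18, 24 and 7 CPM against 22, 14, 17, 13 and 10 CPM (log2FC 0.52, SE 0.41, limma interval -0.36 to 1.40, limma FDR = 0.28). The ranges of the tissues overlapped for both genes, and rumen library 2 was highest and rumen library 5 lowest for both. The difference did not start at D42. At D21, CD3D was at 28, 68, 26, 83 and 44 CPM and CD3E at 2, 5, 1, 2 and 1 CPM in the rumen, and at D7 CD3D was at 16 to 38 CPM and CD3E at 0 to 3 CPM. At D0, CD3D was at 1, 120 and 1 CPM in rumen libraries 1 to 3 and at 31 to 46 CPM in the mid-jejunum, and library 2 is a rumen library that stood apart from the others of D0. The change of the CD3D difference from D0 to D42 was 2.52 (SE 1.33, limma FDR = 0.22), and 4.50 (limma FDR = 2.3e-06) without that library.

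**Figure D3:**
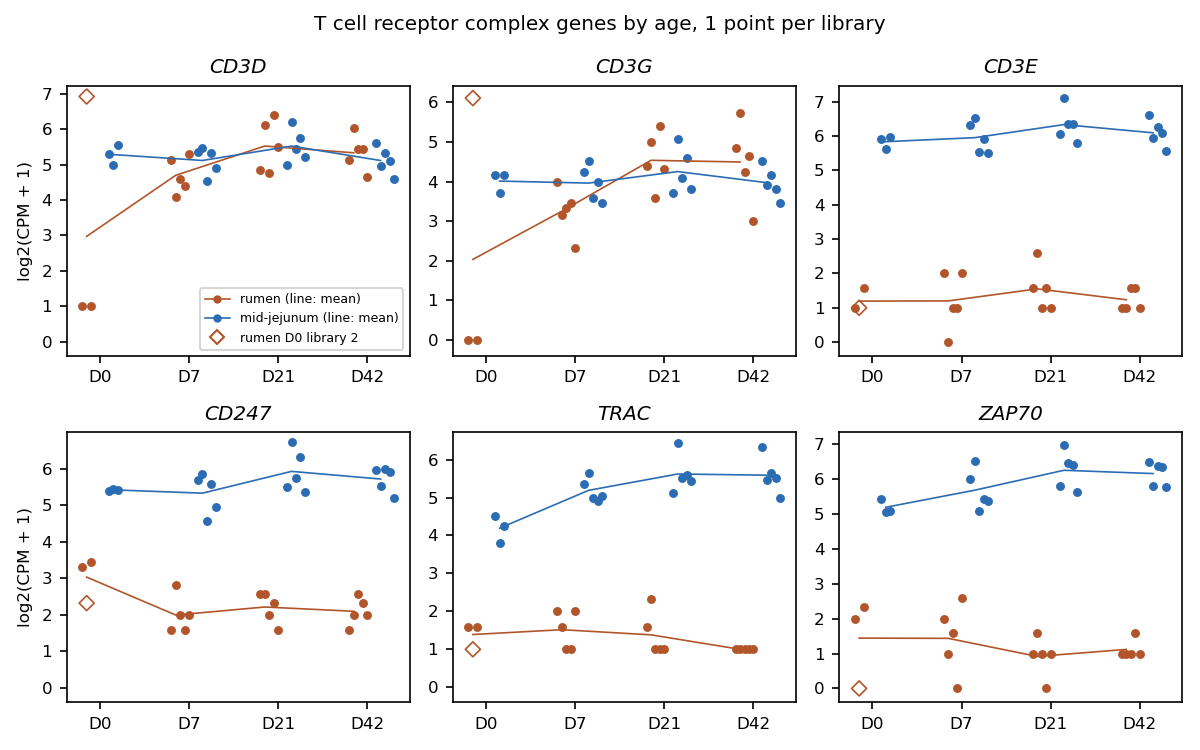
CPM of 6 genes of the T cell receptor complex and its signalling as log2(CPM + 1) at D0, D7, D21 and D42, 1 point per library, with lines through the means of rumen and mid-jejunum and an open diamond for rumen library 2 of D0. From D7 to D42 the rumen points for CD3D and CD3G overlap the mid-jejunum points, whereas those for CD3E, CD247, TRAC and ZAP70 lie below them at each age.

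Macrophage and antigen presentation genes were lower in the rumen. Of 24 members of the macrophage and dendritic cell list, 22 were called lower and 1 higher (median log2FC -2.82). CSF1R, the receptor for the macrophage growth factor, was at 13, 15, 20, 12 and 12 CPM in the rumen and 167, 146, 150, 125 and 97 CPM in the mid-jejunum (9.51-fold lower, log2FC -3.16, SE 0.17, limma FDR = 1.2e-08). The markers CD68 (-2.94) and CD163 (-1.70) and the complement components C1QA (-3.82) and C1QC (-3.79), which macrophages make, were called lower without overlap. CD14, named after its values were seen, was not called (0.38, SE 0.17).

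Of 19 antigen presentation genes, 15 were called lower in the rumen and 1 higher (median log2FC -2.74). The immunoproteasome subunits PSMB8 and PSMB9 were at 11 to 21 and 3 to 12 CPM in the rumen and at 316 to 437 and 113 to 177 CPM in the mid-jejunum (log2FC -4.54 and -4.56). NLRC5, an activator of MHC class I genes, was at 8, 5, 23, 8 and 8 CPM against 93, 69, 181, 75 and 87 CPM, with animal 3 highest in both tissues. ERAP2, which trims peptides, had a log2FC of -3.73 (SE 0.19). CTSL, a lysosomal protease, was the member called higher, at 91 to 148 CPM against 32 to 53 CPM (log2FC 1.31, SE 0.17, limma FDR = 3.4e-05). The members not called were CANX (-0.17), LGMN (-0.22) and CALR (-0.69), 3 genes named after their values were seen, of which CANX and CALR are general chaperones of the endoplasmic reticulum.

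Chemokines and cytokines differed by gene. Of 22 chemokine ligands, 15 were called lower in the rumen and 0 higher (median log2FC -2.23). CCL25, which draws lymphocytes to the small intestine, was listed at 0 in the rumen and was at 680, 684, 272, 649 and 643 CPM in the mid-jejunum. CXCL13, which draws B cells, was listed at 0 in the rumen and varied between 7 and 94 CPM in the mid-jejunum, and CXCL17 was at 0 or 1 CPM against 24 to 93 CPM.

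Of 33 interleukins and interleukin receptors, 5 were called higher in the rumen and 18 lower (median log2FC -1.47). Inhibitors of the IL-1 family led the higher ones. IL36RN, the antagonist of the IL-36 receptor, was at 138, 220, 234, 136 and 165 CPM in the rumen and at 4, 2, 1, 2 and 6 CPM in the mid-jejunum (59.5-fold, log2FC 5.59, SE 0.31, limma FDR = 1.2e-08). IL1RN, the antagonist of the IL-1 receptor, was at 126, 147, 166, 161 and 151 CPM against 7, 7, 18, 4 and 6 CPM (17.9-fold, log2FC 4.16, SE 0.28, limma FDR = 7.6e-08). IL1RAP, the accessory chain of both receptors, was at 20 to 32 CPM against 1 to 4 CPM (log2FC 3.03, SE 0.23). The other 2, named after their values were seen, were IL20RA (3.03), a receptor chain for cytokines that act on keratinocytes, and IL6ST (1.91). The largest negative changes were those of IL1RL1 (listed at 0 in the rumen, 13 to 34 CPM in the mid-jejunum), IL2RG (-4.07) and IL16 (-3.88). IL18 was called lower (-1.47, SE 0.19).

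Genes of microbial pattern recognition were divided. Of 18 members, 2 were called higher in the rumen and 9 lower (median log2FC -1.12). TLR4, the receptor for lipopolysaccharide, was at 21, 25, 39, 22 and 26 CPM in the rumen and at 7, 8, 34, 7 and 9 CPM in the mid-jejunum. Only mid-jejunum library 3 reached into the range of the rumen (log2FC 1.23, SE 0.37, limma FDR = 0.012). LBP, which delivers lipopolysaccharide and was named after its values were seen, was the other member called higher (1.95, SE 0.54), and it too was highest in library 3 of the mid-jejunum, at 23 CPM against 2 to 13 CPM in the others. The inflammasome gene NLRP3 was listed at 0 in the rumen and was at 4 to 15 CPM in the mid-jejunum. ZBP1, a sensor of nucleic acids, was at 0, 0, 0, 0 and 5 CPM against 59, 26, 89, 47 and 148 CPM, highest in animal 5 in both tissues. SIGIRR (-1.26) was called lower, and under median-ratio scaling its log2FC was -0.996 and it was no longer called. TLR2 was not called (-0.97, SE 0.36), although it was called lower without rumen library 2 and without any 1 of mid-jejunum libraries 1, 2, 4 and 5.

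Interferon-stimulated genes were lower in the rumen, and their levels varied between animals. Of 30 members, 25 were called lower and 0 higher (median log2FC -2.29). IFITM2, a membrane protein that blocks virus entry and has close relatives that may share its reads, was at 0, 7, 0, 0 and 0 CPM in the rumen and at 115, 67, 189, 81 and 107 CPM in the mid-jejunum. ISG20 was at 1 to 3 CPM against 24 to 40 CPM (log2FC -3.80, SE 0.23), and IFI44L at 2, 1, 3, 1 and 7 CPM against 40, 22, 54, 25 and 104 CPM. Among the 5 members not called were TRIM25 (0.50), EIF2AK2 (-0.43), STAT2 (-0.66) and IFIT5 (-0.88), named after their values were seen. The summed CPM of the list was 461, 466, 833, 477 and 1170 in rumen libraries 1 to 5 and 2115, 1151, 2905, 1330 and 4036 in mid-jejunum libraries 1 to 5. Libraries of animals 5 and 3 were the highest and second highest in both tissues.

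The animal pattern was counted gene by gene, after the values had been seen. For 19 of the 30 interferon-stimulated genes (63.3%), animal 5 had the highest value of its group in both the rumen and the mid-jejunum, against 3.79% of all genes tested. Of 2 such genes named after their values were seen, ISG15, a ubiquitin-like protein induced by interferon, was at 4, 2, 27, 2 and 55 CPM in the rumen and 141, 37, 116, 60 and 290 CPM in the mid-jejunum, and IFI6 was at 10, 5, 12, 6 and 71 CPM and 57, 37, 96, 49 and 249 CPM. In the antigen presentation list, animal 3 was highest in both tissues for 9 of 19 genes (47.4%, against 6.72% of all genes tested). Animal 3 held the mid-jejunum library that stood apart, and rumen library 5 the highest muscle markers, and the part of these in the counts was not tested.

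**Figure D4:**
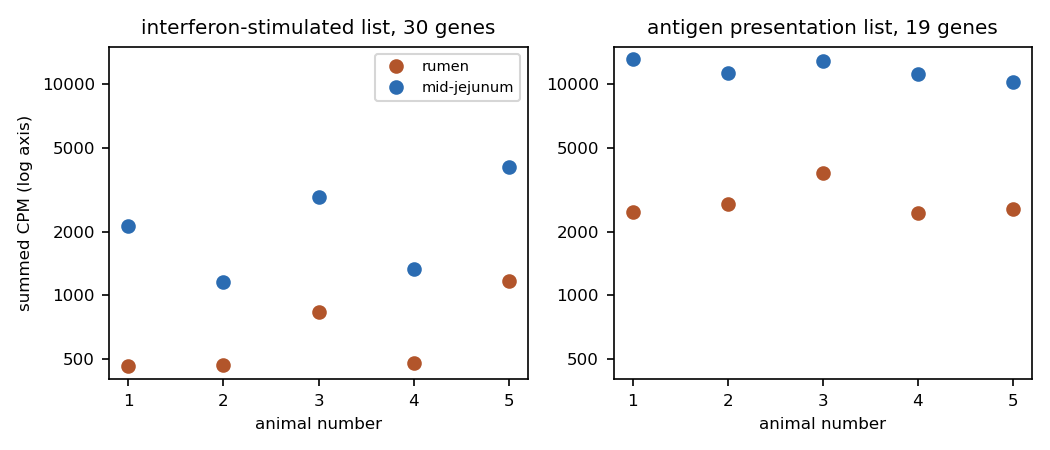
Summed CPM (log axis) of the interferon-stimulated list (30 genes) and the antigen presentation list (19 genes) in the rumen and mid-jejunum library of each animal number at D42. For the interferon-stimulated list animal 5 is highest in both tissues (1170 and 4036 CPM), and in each panel all mid-jejunum points of the list lie above the rumen point of the same animal.

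Complement genes were lower in the rumen with 1 exception. Of 27 members, 24 were called lower and 1 higher (median log2FC -3.68). C3, the central component, was at 10, 9, 20, 8 and 18 CPM in the rumen and at 3808, 4621, 1951, 5426 and 4585 CPM in the mid-jejunum (log2FC -8.20, SE 0.30, limma FDR = 2.8e-10). C5 and C9, components of the lytic pathway, were listed at 0 in the rumen and were at 272 to 727 and 306 to 407 CPM in the mid-jejunum, and CFI, a protease that inactivates C3b, was at 0 or 1 CPM against 500 to 726 CPM. CD55, which protects cell surfaces from complement, was the member called higher, at 23, 30, 29, 35 and 42 CPM against 7, 6, 13, 6 and 8 CPM (3.98-fold, log2FC 1.89, SE 0.22, limma FDR = 1e-05). The members not called, named after their values were seen, were CD59 (0.58), which protects cells in the same way, and MASP2 (-0.32).

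Smooth muscle genes were mostly higher in the rumen. Of 8 smooth muscle genes, 5 were called higher in the rumen and 1 lower (median log2FC 1.14). DES (desmin) was at 4104, 3303, 5033, 2554 and 10337 CPM in the rumen and at 980, 811, 2713, 1343 and 2145 CPM in the mid-jejunum. Rumen library 4 lay below mid-jejunum library 3, so the tissues overlapped (3.17-fold, log2FC 1.64, SE 0.41, limma FDR = 0.0039). FLNA (1.48), TPM1 (1.35), ITGA7 (1.22) and PRKG1 (1.06, limma FDR = 0.046) were the other members called higher, all with overlap. PRKG1 lost its call without any 1 of rumen libraries 1, 3 and 5 and mid-jejunum libraries 1, 2 and 4. With no filter on low values, DES (limma FDR = 0.061), FLNA (0.07) and PRKG1 (0.12) were not called, which left 2 members called higher. CNN2 (0.29) and ILK (-0.06) were not called, and HAND1, a transcription factor of gut mesenchyme, was called lower (-2.43, SE 0.40).

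Fibroblast, endothelial and glial genes were called at shares below and above the 33.5% of all genes tested, and all below the 46.2% of genes with a symbol. Of 25 fibroblast and matrix genes, 4 were called higher and 0 lower (median log2FC 0.16), namely THBS4 (3.22), LTBP2 (2.22) and, named after their values were seen, FMOD (1.47) and ASPN (1.11), which bind collagen. COL1A1 was at 1465, 1816, 4123, 2006 and 5114 CPM in the rumen and at 864, 1798, 2662, 1352 and 2144 CPM in the mid-jejunum, with overlap and without a call (log2FC 0.65, SE 0.38). COL1A2 (0.52, SE 0.35) and DCN (-0.07, SE 0.38) were not called either. Without rumen library 5 the list median was -0.06, with 3 members called higher and 1 lower.

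Of 12 endothelial genes, 3 were called lower and 0 higher (median log2FC -0.18). That share is near the 23.5% of all genes called lower and below the 37.2% of genes with a symbol. The 3 genes were MMRN1 (-2.33, SE 0.27), FLT4 (-1.63, SE 0.26) and ICAM2 (-1.31, SE 0.23), and the first 2 are known from lymphatic endothelium. The general endothelial markers CDH5 (-0.06) and VWF (-0.20) overlapped and were not called, and both were positive under median-ratio scaling (0.21 and 0.08). Of 7 glial and nerve genes, 3 were called lower, among them NGFR (-2.61) and, named after its values were seen, CADM3 (-1.50), and CDH19 was not called (-0.36, SE 0.42). Of 24 cell division genes, 7 were called lower and 1 higher (median log2FC -0.66). That share is near the 33.5% of all genes tested and below the 46.2% of genes with a symbol. The largest negative changes were those of PLK1 (-1.94), TROAP (-1.88) and AURKB (-1.72), with 4 called lower under median-ratio scaling. ANLN, an actin-binding protein of the dividing cell, was called higher (1.32, SE 0.24). None of the 10 reference genes was called (0 higher, 0 lower, median log2FC -0.33 with limma and -0.05 under median-ratio scaling), and 1 and 5 of them passed limma's FDR alone in the 2 directions.

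The comparison was repeated at the other ages, in other calves. At D21, 1520 genes were called higher in the rumen and 3098 lower (32.6% of the genes tested), and 1239 of the genes called higher at D42 were among the former, 87.3% of the D42 list and 81.5% of the D21 list. Of the genes called lower at D42, 2810 were called lower at D21 (84.3% of the D42 list and 90.7% of the D21 list). Opposite calls at D42 and the other age were found for 0 genes at D21, 11 at D7 and 17 at D0, or 120 at D0 without rumen library 2 of that age. At D7, 32.2% of genes were called, with 86.2% of the genes higher at D42 and 67.6% of those lower at D42 called the same way. Of the 25 fibroblast and matrix genes, the number called higher in the rumen was 5 (D0), 20 (D7), 9 (D21) and 4 (D42), with medians of 1.38, 1.44, 0.82 and 0.16. The change from D0 to D42 was called negative for 1 of the fibroblast and matrix genes, and for 16 without rumen library 2 of D0. Of all genes tested, it was called negative for 7.64%, and for 22.1% without that library. No other pair of ages was tested.

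At D0, 1046 genes were called higher (7.38%) and 1807 lower (12.7%), 20.1% in all, from 3 libraries of each tissue. Rumen library 2 of D0 stood apart. Its correlation was 0.761 and 0.792 with the other rumen libraries of D0 and 0.902 to 0.951 with those of D42. Without it, 2461 genes were called higher and 2247 lower at D0 (33.2%). Of the genes called at D42, 47.6% of the higher and 44.1% of the lower ones were called the same way at D0, and 67.4% and 50.1% without that library.

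The change of the rumen to mid-jejunum difference from D0 to D42 was tested itself, as an interaction over 16 libraries. It was called for 1568 genes (11.1% of the genes tested), with 485 positive (3.42%) and 1083 negative (7.64%). Median-ratio scaling turned this balance, with 781 positive and 677 negative. The change was called for 922 positive (6.50%) and 3133 negative genes (22.1%) without rumen library 2 of D0. Part of the symbols came from genes listed for a change with age in the intestine, so the rankings below draw on a selected pool. The largest positive estimates among the genes with a symbol were those of MAMDC4 (7.83, SE 1.35), ALPL (7.78, SE 0.99), IGSF23 (4.99), DDR1 (4.03) and WISP2 (4.01). MAMDC4, an endosomal protein of the suckling intestine, was at 6138, 5993 and 5085 CPM in the mid-jejunum at D0 and at 4, 5, 9, 7 and 172 CPM at D42, and it was at 0 to 8 CPM in the rumen at both ages. ALPL was at 12, 264 and 15 CPM in the rumen at D0 against 212 to 234 CPM in the mid-jejunum. The D0 difference was not called (log2FC -2.56, limma FDR = 0.19), but was called without rumen library 2 (-3.96). At D42 ALPL was at 155 to 246 CPM in the rumen and 2 to 9 CPM in the mid-jejunum. DDR1, a collagen receptor, was lower in the rumen at D0 (231 to 390 against 1361 to 1803 CPM) and higher there at D42 (198 to 290 against 55 to 135 CPM).

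SLC16A1 values differed between ages in both tissues, although no age difference within a tissue was tested. The rumen held 101, 1350 and 142 CPM at D0, with library 2 alone in the range of D42, and 311 to 739 CPM at D7 and 789 to 1406 CPM at D21. In the mid-jejunum it was at 246 to 311 CPM at D0 and at 56 to 89 CPM at D7. The interaction was 3.98 (SE 0.88, limma FDR = 0.0083), and 5.14 (limma FDR = 4.7e-06) without rumen library 2 of D0.

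The largest negative estimates belonged to genes of antibody-producing cells and to 2 others. They were IGJ (-7.64, SE 0.81), ADA (-7.61, SE 0.58), IGLL1 (-7.31), ADIPOQ (-6.46) and MZB1 (-6.02). IGJ was at 27, 5 and 20 CPM in the mid-jejunum at D0, at 279 to 908 CPM at D7, 1194 to 3194 CPM at D21 and 726 to 4503 CPM at D42, and it stayed between 2 and 15 CPM in the rumen at the 4 ages. MZB1, a chaperone of antibody assembly, was listed at 0 in both tissues at D0 and was at 32 to 158 CPM in the mid-jejunum at D42. ADA (adenosine deaminase) was higher in the rumen at D0, at 123, 85 and 53 CPM against 15, 18 and 24 CPM, and lower at D42, at 19 to 34 CPM against 502 to 2188 CPM. ADIPOQ, a gene of fat cells, was at 333, 21 and 3119 CPM in the rumen at D0 and ranged from 5 to 82 CPM there at D42, with 451 CPM in mid-jejunum library 3 and 14 to 25 CPM in the others. Its estimate had the SE 2.03 (limma FDR = 0.044). In the B and plasma cell list, 16 of 21 members had a negative change called, and 17 without rumen library 2 of D0. The shares of all genes tested were 7.64% and 22.1%.

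**Figure D5:**
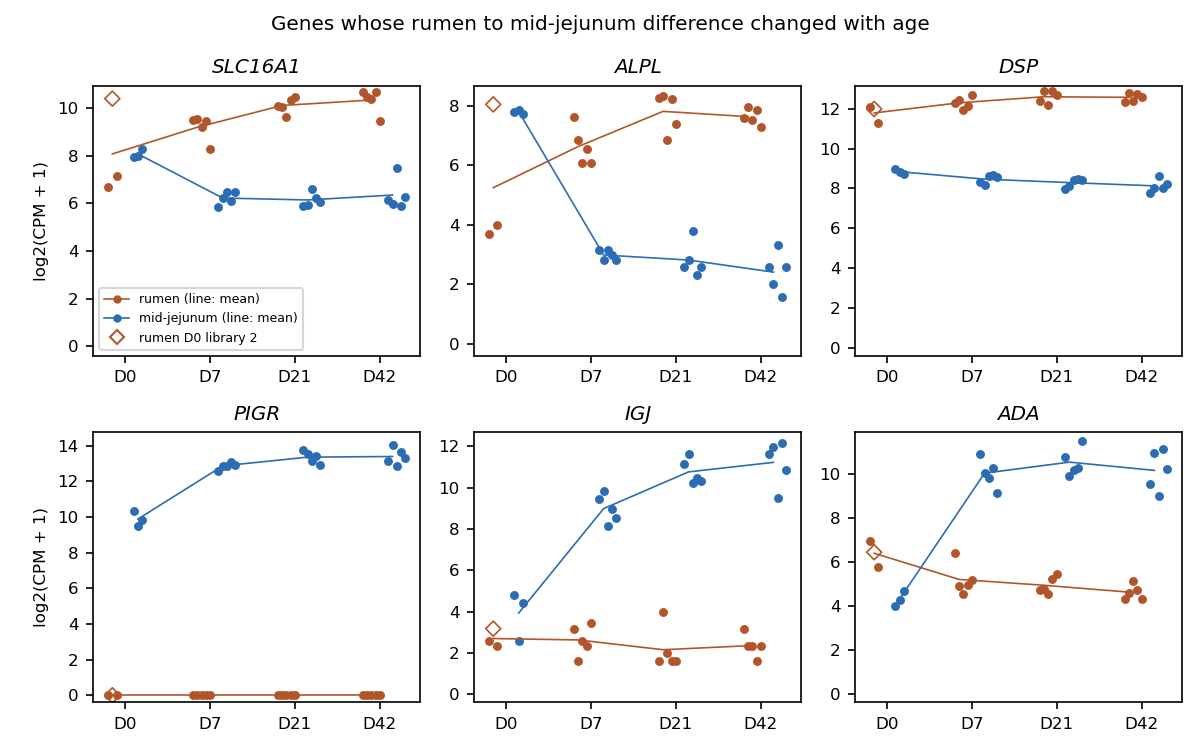
CPM of 6 genes as log2(CPM + 1) at D0, D7, D21 and D42 in the rumen and mid-jejunum, 1 point per library, with lines through the means and an open diamond for rumen library 2 of D0. SLC16A1 and ALPL are higher in the mid-jejunum than in 2 of the 3 rumen libraries at D0 and lower than all rumen libraries from D7 on, DSP is higher in the rumen throughout, and PIGR, IGJ and ADA reach their high mid-jejunum levels after D0.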

How the data were processed

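Whole-tissue RNA-seq libraries of rumen and mid-jejunum at D42 (5 each) were compared, with those of D0, D7 and D21 beside them. The submitters' processing notes name CASAVA 1.8, TopHat2 2.0.10, HTSeq and the bovine build UMD 3.1. The authors deposited CPM (gene reads per 1000000 mapped reads) rounded to whole numbers, handled here as a score because no read counts can be taken from it, so the depth of each library is unknown and the smallest step is 1 CPM. The labels name Trizol for RNA extraction and the study's methods a column kit. A gene was tested if 50% or more of the 18 libraries of rumen, or of mid-jejunum, reached 2 CPM (14174 of 21510).

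Log2(CPM + 1) was fitted with limma 3.58.1 (lmFit, eBayes with trend) in R 4.3.3, with Benjamini-Hochberg adjustment over all genes tested, and genes were called at FDR under 0.05 and a log2FC beyond 1. The change from D0 to D42 was the interaction of tissue and age. Library measures used an exact permutation test. Python 3.11.15, numpy 2.4.6, pandas 2.3.3, scipy 1.17.1 and matplotlib 3.10.9 were used for the rest. In simulated data with 200 genes changed 4-fold for the D42 comparison over 14174 genes, 90% were recovered.

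Symbols were paired with identifiers by the study's supplementary gene tables (1777 pairs, 1720 with a symbol of their own). The comparison and the 20 gene lists were chosen with earlier results of these data known. Named genes were the called, non-overlapping genes with the largest changes (up to 3 per list and direction, 10 per direction over all symbols, 5 per direction in the interaction), every tight junction, smooth muscle and marker gene, and genes the paper names. Same-numbered samples were taken as 1 calf. The correlations of their deviations from the group means at D42 were 0.123, 0.001, 0.158, 0.113 and 0.179 for animals 1 to 5. For animals 1, 2 and 5 another number gave a higher value (0.154, 0.217 and 0.188). At D7 all same-number values were negative (-0.273 to -0.02), whereas at D0 the same number was highest for each animal (0.05 to 0.106). At D21 it was highest for animals 1, 3 and 5. These correlations do not settle whether a shared number is a shared calf. Alternatives were another filter, pseudocount, scaling, variance model, fit over 36 samples, the animal as a block and leaving out libraries. Values of some genes are not reported here, although the list counts and sums include them.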

Additional observations from a re-analysis of the deposited data

Results flagged for a closer look

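Of 231 groups of 5 values, those of the reported genes in each tissue at D42, 29 held a library that lay apart by Dixon's test on log2(CPM + 1). The limit was a gap over range above 0.71, which chance passes in about 1 in 20 groups of continuous values. A single library off otherwise equal whole numbers always passes it, as for CDH17 and CFI in rumen library 3. That rate therefore does not hold for groups near 0 CPM. Mid-jejunum library 3 was the library that lay apart in 12 cases. In mid-jejunum library 2 this gene was SIGIRR (28 CPM). In mid-jejunum library 3 these genes were ADIPOQ (451 CPM), AGPAT2 (78 CPM), CCL25 (272 CPM), CDH3 (27 CPM), CLDN15 (81 CPM), DMBT1 (6573 CPM), ENSBTAG00000018054 (2312 CPM), FCGBP (1329 CPM), REG3G (636 CPM), SLC16A1 (176 CPM), TLR2 (19 CPM) and TLR4 (34 CPM). In mid-jejunum library 5 these genes were ANLN (42 CPM) and MAMDC4 (172 CPM). In rumen library 1 these genes were APOB (4 CPM), DUOX2 (226 CPM) and MZB1 (1 CPM). In rumen library 2 these genes were IFITM2 (7 CPM) and IL2RG (2 CPM). In rumen library 3 these genes were CDH17 (1 CPM) and CFI (1 CPM). In rumen library 4 this gene was ZAP70 (2 CPM). In rumen library 5 these genes were CLDN7 (24 CPM), CXCL17 (1 CPM), ITGA6 (123 CPM), SLC16A1 (699 CPM), UGT1A1 (555 CPM) and ZBP1 (5 CPM).

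The rumen minus mid-jejunum difference changed between D0 and D42 for 46 of 128 reported genes in the fit, by limma's test of the interaction itself, against 11.1% of all genes tested. Of these genes, 10 had been chosen for the size of this change. Part of the symbols also came from genes listed for a change with age in the intestine. The share is therefore not comparable with that of all genes. Of the 46 changes, 45 were called the same way without rumen library 2 of D0. Positive changes on the log2(CPM + 1) scale were found for MAMDC4 (7.83), ALPL (7.78), IGSF23 (4.99), DDR1 (4.03), WISP2 (4.01), SLC16A1 (3.98), CTSL (3.35), APOC3 (2.89), MME (2.82), AQP3 (1.76), ITGB4 (1.74), DSP (1.5), IL1RAP (1.43), CXADR (1.21) and CDHR2 (1.02). The larger negative changes were those of IGJ (-7.64), ADA (-7.61), IGLL1 (-7.31), ADIPOQ (-6.46), MZB1 (-6.02), IGHM (-5.94), ISG20 (-3.85), CXCL17 (-3.64), PIGR (-3.51), CD79B (-3.41), CD79A (-3.18), CLDN3 (-2.96), DMBT1 (-2.96), OLFM4 (-2.67), MS4A1 (-2.67) and DCN (-2.52). The smaller negative changes were those of CLDN5 (-2.45), TLR2 (-2.44), IL18 (-2.27), NLRP3 (-2.14), TRAC (-1.79), C5 (-1.77), C1QC (-1.76), CD55 (-1.73), C1QA (-1.71), AGR2 (-1.58), ENSBTAG00000018054 (-1.39), SIGIRR (-1.37), CD247 (-1.23), CD68 (-1.21) and PSMB8 (-1.16).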

How the results depend on the processing

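At D42 the counts of genes called stayed within 1.5 times under each other filter, pseudocount, scaling, variance model and fit, and passed that limit with FDR alone (2540 higher, 6162 lower in the rumen). With the animal as a replicate block, 1423 genes were called higher and 3352 lower. Leaving out 1 library or 1 animal gave 1326 to 1533 higher and 3208 to 3429 lower, 270 to 283 list members called and 110 to 114 named genes called, and leaving out 1 library gave a difference in detected genes of -1103.0 to -966.9 and in the share of the top 100 genes of 10.4 to 12.3 percentage points. Principal component 1 held 53.95% with genes scaled to unit variance and 89.48% over genes with a symbol. List medians depended on the pseudocount where members were near 0, as for the enterocyte list (-3.24 with a pseudocount of 5).

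At D0 the fit over 36 samples called 1713 genes higher, and leaving out 1 library gave 595 to 2461 higher and 1105 to 2247 lower. The low ends came from leaving out any 1 mid-jejunum library of D0 (595 higher each, 1105, 1139 and 1142 lower) and the high ends from leaving out rumen library 2. The ranges were 1960 to 2258 and 2466 to 2551 at D7, and 1461 to 1636 and 2946 to 3234 at D21. For the interaction, median-ratio scaling gave 781 positive and 677 negative genes, and leaving out 1 library gave 341 to 922 and 609 to 3133, the low ends without mid-jejunum library 3 of D0. The balance of positive and negative changes thus turned with the scaling. The causes were not tested. Of genes not called at D42, CLDN5, ESAM, CXADR, CDH5 and VWF changed sign under median-ratio scaling. The depth of each library is unknown, and values of a few CPM carry the rounding to whole numbers.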

Other observations

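The summed CPM of the B and plasma cell list was 129, 137, 160, 131 and 125 in rumen libraries 1 to 5 and 13077, 14284, 3307, 18630 and 6483 in mid-jejunum libraries 1 to 5. The mid-jejunum sums came mostly from antibody genes. The antigen presentation list summed to 2469, 2697, 3776, 2462 and 2566 CPM in the rumen and to 13185, 11249, 12838, 11123 and 10203 CPM in the mid-jejunum. Mid-jejunum library 3 was thus lowest for the first list and second highest for the other.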
